A study of Mus musculus with 6 samples.

Results

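The 10 genes described here were Gzma, Gzmb, Gzmc, Gzmk, Gzmm, Prf1, Nkg7, Fasl, Ifng and Klrg1, chosen by name as granzymes and cytotoxic effectors of lymphocytes. They were 10 of the 32285 genes listed in each library, and all 10 were found by symbol in all 6 libraries. Killer lymphocytes store granzymes, which are serine proteases, in granules together with perforin. On contact with a target cell the granules are released, perforin (Prf1) opens the target's membrane and granzymes that enter cleave proteins of the death pathways. Fas ligand (Fasl) kills by a separate route through its receptor, interferon gamma (Ifng) acts on surrounding cells, Nkg7 is a granule membrane protein that takes part in degranulation, and Klrg1 is an inhibitory receptor of mature natural killer (NK) cells and effector T cells.

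The tumors grew from EMT6, an established line of mouse mammary carcinoma cells. The groups were BALB/c mice labelled WT and mice labelled deficient in Cysltr1, the gene of a receptor for cysteinyl leukotrienes. Bone marrow was enriched for progenitors, and spleen and tumor were enriched magnetically for cells with CD45, the pan-leukocyte surface protein. Each of the 3 tissues gave 1 library per genotype from a pool of 3 mice, so no difference between groups had a replicate check, and the sources used here do not state if 1 pool gave all 3 of its tissues. No test was run for that reason. Intervals are 95% exact Poisson intervals of a level, Clopper-Pearson intervals of a share and exact conditional intervals of a ratio, and all of them cover counting error only.

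The libraries held 40377940 to 75873784 UMIs (unique molecular identifiers, 1 per captured transcript). After filtering, 4983 to 8295 cells per library remained, with a median of 2578 to 12764 UMIs per cell. Cysltr1 itself went against the label in 2 of 3 tissues. Its level was 4.74 and 24.6 CPM (the gene's UMIs over all UMIs, scaled to a common total) in the marrow libraries labelled WT and deficient, 6.94 and 33.1 CPM in those of spleen, and 9.67 and 7.48 CPM in those of tumor. Libraries are therefore named by their labels throughout, and each direction between genotypes given below is a direction between the libraries so labelled. Any pair of libraries shared 46 to 128 barcodes. The median spleen NK cell had 3026 UMIs in the library labelled WT and 3802 in that labelled deficient, against 2898 and 2323 in tumor. A call below means a ratio of at least 1.5-fold, with 1 CPM added to both levels, for a gene with at least 30 UMIs over both libraries.

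NK cells were a cluster-based class with 149 cells in the spleen library labelled WT and 270 in that labelled deficient, and 74 and 185 in tumor. Their defining receptor gene Ncr1 was found in 99.3% and 98.1% of spleen NK cells and in 40.5% and 38.4% of tumor NK cells. Cd3e, a T cell receptor component, was found in 2.70% to 6.30% of the NK cells of these 4 libraries. Cd3d, another such component, was found in 10.1% and 17.8% of spleen and in 2.70% and 5.95% of tumor NK cells. A stricter choice by transcripts asked for Ncr1 or Klrb1c and no Cd3d, Cd3e or Cd3g. It kept 126 and 192 NK cells in spleen and 32 and 75 in tumor. T cells were divided by transcripts. A cell with a Foxp3 UMI counted as a Foxp3 T cell, a cell with Cd8a or Cd8b1 and without Cd4 or Foxp3 as a CD8 T cell, and a cell with Cd4 only as a CD4 T cell. The tumor held few of these, with 25 and 42 CD8, 11 and 19 CD4 and 7 and 18 Foxp3 T cells in the libraries labelled WT and deficient. None of the 10 genes took part in clustering or in naming a class.

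On mm10, Gzma (ENSMUSG00000023132) lies on the minus strand at chr13:113093825-113100981, and Gzmk (ENSMUSG00000042385) is its neighbour at chr13:113171608-113225908. Gzmb (ENSMUSG00000015437) at chr14:56258838-56262260 and Gzmc (ENSMUSG00000079186) at chr14:56231441-56234656 belong to a second cluster, also on the minus strand, that holds Gzmd, Gzme, Gzmf and Gzmg as well. Gzmm (ENSMUSG00000054206), Prf1 (ENSMUSG00000037202) and Ifng (ENSMUSG00000055170) lie apart on chromosome 10, at chr10:79689020-79695261, chr10:61297833-61304680 and chr10:118441046-118445892. Nkg7 (ENSMUSG00000004612) lies at chr7:43437073-43438249, Fasl (ENSMUSG00000000817) at chr1:161780689-161788495 and Klrg1 (ENSMUSG00000030114) at chr6:122270596-122282882. All 10 are protein-coding genes in GENCODE.

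The 250 bases before the start of Gzma, Gzmb and Gzmc, from RefSeq on GRCm38, are shown because these granzymes had the most distinct patterns between tissues. That of Gzmd is shown because Gzmd is a related gene of the same gene cluster as Gzmc and appeared with it in the tumor. All are on the minus strand and are given 5′ to 3′, ending at the base before the start. They span chr13:113100982-113101231 for Gzma, chr14:56262335-56262584 for Gzmb, chr14:56234658-56234907 for Gzmc and chr14:56132594-56132843 for Gzmd. Capitals mark a RUNX core (TGTGGT on either strand) or, in Gzmb, also an AP-1 motif (TGANTCA).
Gzma: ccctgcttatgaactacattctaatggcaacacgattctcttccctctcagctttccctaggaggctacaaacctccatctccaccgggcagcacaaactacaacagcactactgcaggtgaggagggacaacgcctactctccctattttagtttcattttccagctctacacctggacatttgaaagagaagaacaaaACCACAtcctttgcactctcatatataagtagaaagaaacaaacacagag
Gzmb: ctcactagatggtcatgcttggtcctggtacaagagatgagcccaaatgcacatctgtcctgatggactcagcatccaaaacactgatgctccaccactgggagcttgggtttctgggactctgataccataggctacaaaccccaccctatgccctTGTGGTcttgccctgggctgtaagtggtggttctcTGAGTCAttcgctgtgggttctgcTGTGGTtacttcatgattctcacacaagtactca
Gzmc: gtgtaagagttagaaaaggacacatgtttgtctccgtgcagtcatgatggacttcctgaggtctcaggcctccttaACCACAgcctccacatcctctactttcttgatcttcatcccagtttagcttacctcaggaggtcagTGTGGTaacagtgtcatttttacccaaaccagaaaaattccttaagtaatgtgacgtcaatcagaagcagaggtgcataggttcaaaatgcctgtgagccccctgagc
Gzmd: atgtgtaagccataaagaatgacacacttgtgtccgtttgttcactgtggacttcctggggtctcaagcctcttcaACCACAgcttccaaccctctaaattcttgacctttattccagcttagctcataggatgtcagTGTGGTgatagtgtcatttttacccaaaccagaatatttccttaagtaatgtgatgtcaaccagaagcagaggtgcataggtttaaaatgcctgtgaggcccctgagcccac
The RUNX core began 50 bases before the start of Gzma, 93 and 34 bases before that of Gzmb, 174 and 108 bases before that of Gzmc, and 174 and 112 bases before that of Gzmd. Of 32851 RefSeq promoters of the same length, 14.1% held this core. The AP-1 motif of Gzmb began 58 bases before the start, overlapped no RUNX core, and was held by 6.75% of promoters. Outside these 4 promoters, the RUNX core was also found for Prf1 at 130 bases, Nkg7 at 83 and the first of 2 starts of Gzmm at 247. A T-box core (GGTGTG, in 16.3% of promoters) was found for Gzmk at 75 bases, Nkg7 at 13, Fasl at 190 and the second start of Gzmm at 189. A STAT motif (TTCNNNGAA, in 7.02%) was found for Nkg7 at 220 bases, Ifng at 249 and the first start of Gzmm at 86. All motifs were searched on both strands. These are matches of letters only. The promoter of Gzmc was 82.4% identical to that of Gzmd, 83.2% to Gzme, 77.2% to Gzmf and 79.6% to Gzmg, but 54% identical to that of Gzmb.

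Spleen NK cells carried most of the 10 genes, with Gzma in 88.6% and 85.2% of cells, Nkg7 in 98.0% and 99.3%, Prf1 in 78.5% and 81.5% and Gzmb in 73.2% and 65.6% in the libraries labelled WT and deficient. Gzmc, an activation-associated granzyme, had 0 UMIs in 149 cells, where 3 UMIs would be 5.72 CPM, and 1 UMI in 270 cells. B cells of the same libraries, which should lack these genes, gave a measure of free RNA at a median of 2692 and 3426 UMIs per cell. There, Gzma was found in 0.324% and 0.942% of cells, Prf1 in 0.811% and 2.09% and Nkg7 in 0.487% and 0.875%, and the 10 genes summed to 7.73 and 12.9 CPM. In NK cells the same sum was 15480.8 and 14202.9 CPM.

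Gzma was the granzyme found in most spleen NK cells, at 9285 CPM (9026 to 9550) in the library labelled WT and, in that labelled deficient, at 8263 CPM (8103 to 8425). It was spread over the cells, with a median of 32 and 37.5 UMIs per positive cell and 3.31% and 3.16% of all Gzma UMIs in the highest cell. Nkg7 stood at 3419 and 3394 CPM, Gzmb at 1091 and 827 CPM, and Prf1 at 729 and 776 CPM. Fasl reached 320 and 351 CPM, Ifng 368 and 313 CPM, and Klrg1 181 and 210 CPM, in 39.6% and 43.3% of cells. Gzmk, a granzyme of memory-like lymphocytes, was found in 15.4% and 10.7% of cells, and Gzmm in 2.01% and 8.52%. Most cells of the class thus held Gzma, Gzmb, Prf1 and Nkg7, and a minority held Klrg1, Gzmk or Gzmm. At 1000 UMIs per cell Gzma was still found in 87.2% and 80.7% of them and Gzmm in 0.676% and 0.741%.

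**Figure D1:**
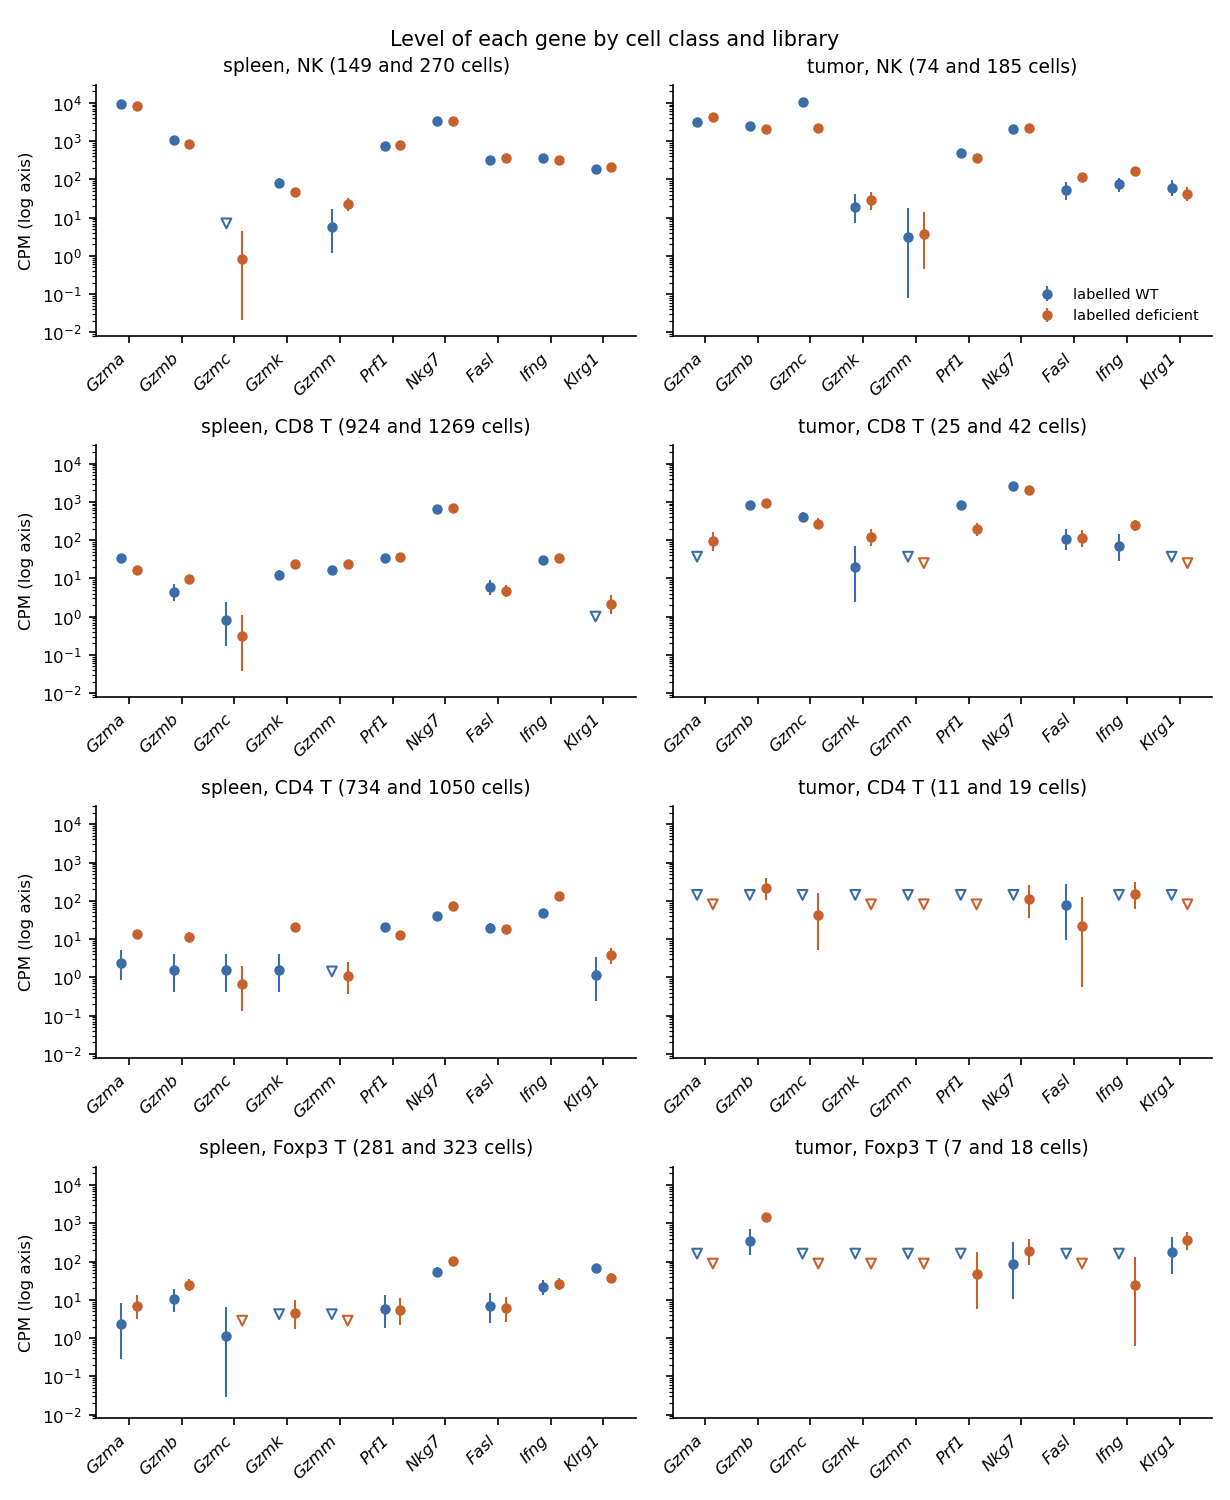
Level of each gene in CPM (log axis) in NK, CD8, CD4 and Foxp3 T cells of spleen (left) and tumor (right), for the libraries labelled WT (blue) and deficient (orange). Points are levels of 1 library each, bars are 95% exact Poisson intervals, and open triangles mark the upper limit where no UMI was found. Gzmc was at 0 or 1 UMI in spleen NK cells and at 10530.4 and 2218 CPM in tumor NK cells, and in the small tumor CD4 and Foxp3 classes at least 5 of the 10 genes were at 0 in each library.

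Among spleen T cells the 10 genes were sparse apart from Nkg7. In CD8 T cells Nkg7 was found in 77.1% of 924 cells and 81.9% of 1269 cells, at 637 and 675 CPM, whereas in CD4 T cells it was found in 3.68% and 6.38% and in Foxp3 T cells in 7.83% and 8.98%. Prf1 was found in 11.7% and 15.7% of CD8 T cells and in 6.27% and 4.76% of CD4 T cells, above the B cell share in both libraries. Gzma, Gzmb and Gzmk were each found in at most 2.99% of CD8 T cells, and Gzmm in 3.79% and 5.59%. Klrg1 had 0 UMIs in 924 CD8 T cells of the library labelled WT and 14 UMIs in 1269 cells of that labelled deficient, but was found in 5.34% and 4.95% of Foxp3 T cells. Few cells held most of the Gzma of this class. One cell of a proliferating cluster, in which Mki67 was found in 88.4% and 93.6% of cells, held 106 of the 122 Gzma UMIs of CD8 T cells in the library labelled WT, and 1 cell held 70 of 111 in the other.

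A separate spleen cluster of 149 and 151 cells, left unnamed, held the T cell component Cd3e in 90.6% and 98.7% of cells and the transcription factor gene Zbtb16, known from NKT cells, in 34.2% and 47.7%. Its effector pattern was not that of NK cells. Nkg7 was found in 67.1% and 73.5% of its cells, Ifng in 51.7% and 45.7% and Fasl in 46.3% and 50.3%, but Gzma in 5.37% and 7.28%, Prf1 in 8.72% and 14.6% and Klrg1 in 1.34% and 3.31%. Ifng stood at 423 and 315 CPM in it, against 368 and 313 CPM in NK cells, and Gzma at 141 and 64.8 CPM, against 9285 and 8263 CPM. A T cell cluster of 50 and 92 cells with the gamma delta receptor gene Trdc in 48% and 46.7% of cells had Nkg7 in 88% and 75% and Ifng in 42% and 23.9%, again with Gzma in 4% and 2.17%. Ncr1 was found in 40% and 18.5% of its cells and the gamma delta receptor gene Tcrg-C1 in 22% and 19.6%, and Trdc also in 22.8% and 35.2% of spleen NK cells.

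Tumor NK cells held Gzmc, which spleen NK cells lacked, beside Gzma and Gzmb. Gzmc was found in 33 of 74 cells (44.6%, 33.0 to 56.6%) of the library labelled WT and in 50 of 185 cells (27.0%, 20.8 to 34.0%) of that labelled deficient, at 10530.4 CPM (3298 UMIs) and 2218 CPM (1156 UMIs). Gzmb was at 2430 and 2028 CPM, in 74.3% and 70.3% of cells, and Gzma at 3145 and 4259 CPM, in 66.2% and 76.8%. Nkg7 was found in 95.9% and 94.6% of cells. Prf1 was found in 55.4% and 45.9%. The remaining genes were found in fewer cells, with Fasl in 18.9% and 27.0%, Ifng in 20.3% and 24.3%, Klrg1 in 9.46% and 7.57%, Gzmk in 6.76% and 7.03%, and Gzmm with 1 and 2 UMIs. In tumor neutrophils, as a background at a median of 1071 and 1148 UMIs per cell, the 10 genes summed to 3.67 and 11.7 CPM and none was found in over 0.272% of cells.

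Gzmc was unevenly spread over tumor NK cells. A single cell held 964 of its 3298 UMIs in the library labelled WT and another held 355 of 1156 in that labelled deficient, and the highest 5 cells held 78.6% and 67.9%. Without the highest cell of each library the levels were 7771 and 1561 CPM. Related granzyme genes of the same gene cluster appeared in the same class. Gzmd had 621 and 191 UMIs in 16 cells of each library, Gzme 185 and 80 UMIs in 15 cells of each, Gzmf 128 and 23 UMIs in 6 and 2 cells, and Gzmg 164 and 1 UMIs in 4 cells and 1 cell, while all 4 had 0 UMIs in spleen NK cells. Of all 50-base windows of the Gzmc transcript 4.14% also occurred in Gzmd, Gzme or Gzmg, against 21.9% of those of Gzmd, 20.6% of Gzme, 7.36% of Gzmf and 19.8% of Gzmg, so the split of reads among these genes is uncertain. Of the other 9 genes, only Ifng shared windows, 13.5% of them with Gm49751, which leaves its count less certain.

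Tumor CD8 T cells expressed Nkg7 in 25 of 25 and 34 of 42 cells, at 2550 and 2086 CPM, and Gzmb in 13 of 25 (52%, 31.3 to 72.2%) and 18 of 42 (42.9%, 27.7 to 59.0%), at 817 and 905 CPM. Prf1 was found in 10 of 25 and 14 of 42 cells, Fasl in 7 and 12, and Ifng in 5 and 13. Gzmc was found in 6 of 25 and 3 of 42 cells. Gzma had 0 UMIs in the library labelled WT, where 3 UMIs would be 29.9 CPM, and 14 UMIs in 3 cells of the other. Klrg1 and Gzmm had 0 UMIs in both. Most cells with Gzmb therefore held no Gzma UMI.

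Tumor Foxp3 T cells, of which there were 7 and 18, had Gzmb in 3 and 10 cells, at 350 and 1441 CPM, and Klrg1 in 1 and 10 cells. In this class Gzma, Gzmc, Gzmk, Gzmm and Fasl had 0 UMIs in both libraries, and Prf1 had 0 and 2 UMIs. The 11 and 19 tumor CD4 T cells had 2 and 25 UMIs of the 10 genes together, 10 of them Gzmb in 2 cells of the library labelled deficient. A further tumor T cluster was nearly all from that library, with 53 cells against 1, so it cannot be told apart from the library itself. Of its 53 cells 28 held Il17a, a cytokine gene of type 17 lymphocytes, 19 held Cd163l1 and 17 held Trdc, both known from gamma delta T cells. Gzmb was found in 25 of the 53 cells (47.2%), at 1093 CPM, while Gzma, Gzmk, Gzmm, Prf1, Nkg7, Fasl and Klrg1 had 0 UMIs. In this cluster and in tumor Foxp3 T cells Gzmb was thus found where Prf1 had 0 to 2 UMIs.

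Between tissues, NK cells of tumor and spleen differed in the levels of their granzymes. Gzma was still found in 66.2% and 76.8% of tumor NK cells. Its level there, 3145 and 4259 CPM, was above that of Gzmb, 2430 and 2028 CPM. In both pairs of libraries Gzmb and Gzmc were higher in tumor and most of the other genes lower. Gzmb was 2.23-fold (1.996 to 2.487) higher in tumor than in spleen in the libraries labelled WT and 2.45-fold (2.25 to 2.67) higher in those labelled deficient. The highest 5 cells held 49.3% and 20.3% of the Gzmb UMIs of tumor NK cells, against 13.3% and 13.6% in spleen, and the median positive cell had 5 and 4 UMIs in tumor and 4 and 5 in spleen. Gzmc was at least 1841-fold higher in the first pair, where spleen had no UMI, and 2740-fold (491 to 108300.3) in the second, where spleen had 1. Gzma was lower in tumor, at 0.339 (0.316 to 0.363) and 0.516 (0.492 to 0.540) of the spleen level. Because 1 library stood for each tissue, these ratios compare libraries.

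The signalling genes and the receptor were lower in tumor NK cells as well. Fasl stood at 0.160 (0.0891 to 0.267) and 0.323 (0.242 to 0.425) of the spleen level, Ifng at 0.200 (0.123 to 0.308) and 0.516 (0.402 to 0.655), and Klrg1 at 0.335 (0.193 to 0.552) and 0.201 (0.124 to 0.311). Of the 19 Klrg1 UMIs of tumor NK cells in the library labelled WT, 13 came from 1 cell, and without it the level was 20.1 CPM in place of 60.7. Nkg7 was at 0.616 and 0.645 of the spleen level, and Prf1 at 0.679 (0.560 to 0.821) and 0.460 (0.391 to 0.539). Gzmk was at 0.234 (0.0813 to 0.551) and at 0.613 (0.323 to 1.10), the second with an interval that included 1. In the libraries labelled WT 2 of 9 genes with enough UMIs were at least 1.5-fold higher and 6 lower, and in those labelled deficient 2 of 10 were higher and 8 lower. Of all genes tested 18.1% were higher and 28.9% lower in the first pair and 13.4% and 28.6% in the second. The median log2 ratio of the members was -1.56 and -0.95, against -0.13 and -0.19 over all genes, so ratios near 1 are to be read against that shift. At 1000 UMIs per cell Gzma was found in 58.9% and 70.9% of tumor NK cells against 87.2% and 80.7% in spleen, Fasl in 5.48% and 12% against 33.8% and 40.4% in spleen, and Ifng in 8.22% and 9.14% against 24.3% and 22.2%. Gzmb was found in 54.8% and 61.1% of tumor NK cells against 55.4% and 43.7% in spleen, so in the libraries labelled WT its share was nearly equal where its level was not.

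The summed level of the 10 genes in NK cells was 1.22 times (1.18 to 1.26) the spleen level in the libraries labelled WT and 0.803 times (0.779 to 0.827) in those labelled deficient. This sum was carried by Gzma in spleen and, in the library labelled WT, by Gzmc in tumor. Without the highest cell of each library its log2 ratio went from 0.29 to 0.075 in the first pair, and with cells thinned to 1000 UMIs to -0.27, so its direction was not stable there. Markers of other cell types were summed in the same classes. Those of B cells, CD8 T cells and CD4 T cells summed to at most 3.19 CPM in tumor NK cells, those of macrophages to 399 and 401 CPM with 8 of 9 genes above 0, and those of neutrophils to 303 and 182 CPM against 477 and 153 CPM in spleen NK cells. T cell markers summed to 316 and 537 CPM in tumor and 648 and 726 CPM in spleen NK cells, and NK markers to 3787 and 4236 CPM in tumor and 7500 and 8426 CPM in spleen. Type 1 innate lymphoid markers summed to 220 and 230 CPM in tumor NK cells, with 5 of 5 genes above 0 in both libraries, against 36.2 and 20.2 CPM in spleen NK cells, with 5 and 4 of 5 above 0. Their part in the result was not tested.

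**Figure D2:**
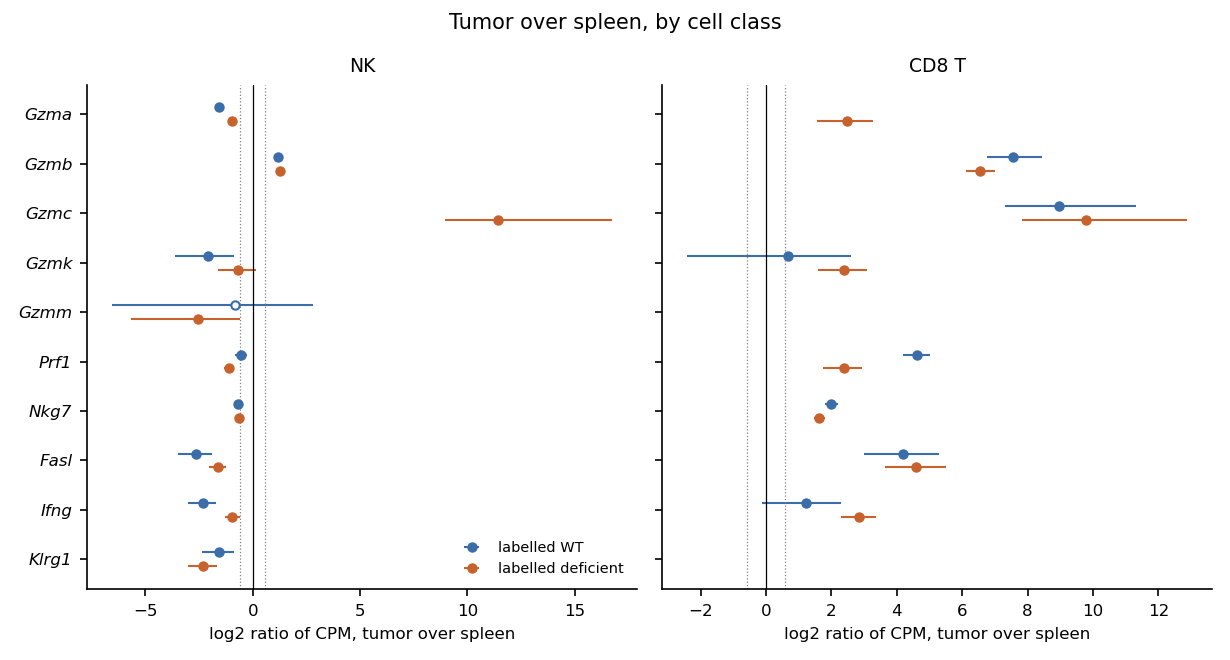
Log2 ratio of CPM in tumor over spleen for each gene in NK cells (left) and CD8 T cells (right), for the libraries labelled WT (blue) and deficient (orange). Bars are 95% exact conditional intervals, open points have under 30 UMIs over both libraries, dotted lines mark 1.5-fold, and genes with 0 UMIs in either tissue are not drawn. Gzmb and Gzmc lie to the right in both classes, and Gzma, Fasl and Ifng lie to the left in NK cells and, where drawn, to the right in CD8 T cells.

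In CD8 T cells, as in NK cells, Gzmb and Gzmc were higher in tumor than in spleen. Prf1, Fasl and Nkg7 were higher in tumor CD8 T cells as well, opposite to NK cells. Gzmb was 188-fold (109 to 344) higher in tumor in the libraries labelled WT, from 4.34 to 817 CPM, and 93.8-fold (69.0 to 129) higher in those labelled deficient, from 9.64 to 905 CPM. Thinned to 1000 UMIs per cell, the levels were 5.46 and 480 CPM in the first pair and 3.95 and 905 CPM in the second. Prf1 was 24.6-fold (18.4 to 32.7) and 5.19-fold (3.38 to 7.70) higher, Fasl 18.4-fold (8.03 to 39.5) and 24.2-fold (12.6 to 45.1), and Nkg7 4.003-fold (3.505 to 4.556) and 3.09-fold (2.74 to 3.47). Ifng was 7.19-fold (4.91 to 10.3) higher in the libraries labelled deficient and 2.31-fold (0.909 to 4.93) in those labelled WT, the latter with an interval that included 1. Thinned levels of Prf1 were 36.1 and 320 CPM in the libraries labelled WT and 35.5 and 119 CPM in those labelled deficient. In the tumor library labelled WT 5 of the 25 cells held 87.8% of the Gzmb UMIs, and 5 held 89.2% of those of Prf1. Gzmc had 41 and 40 UMIs in tumor against 3 and 2 in the larger spleen classes. The sum of the 10 genes was 6.20-fold (5.62 to 6.83) and 4.87-fold (4.47 to 5.30) higher.

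Gzmm and, in 1 pair of libraries, Gzma had no UMI in tumor CD8 T cells. Gzmm had 0 UMIs in both tumor CD8 classes, against 61 and 155 UMIs in spleen, and the intervals of both ratios (0 to 2.29 and 0 to 1.06) included 1. Gzma had 0 UMIs in 25 tumor cells of the library labelled WT, where the interval (0 to 1.13) included 1 and where spleen stood at 4.37 CPM without its highest cell. It was 5.56-fold (2.95 to 9.73) higher in those labelled deficient, with 14 UMIs in 3 cells. With 1 CPM added, 7 of 9 genes passed 1.5-fold upward and 2 downward in the libraries labelled WT. In those labelled deficient 8 of 9 passed upward and 1 downward. The lower ones were the genes at 0 just named, whose intervals included 1. Among the higher ones in the libraries labelled WT, Ifng had an interval that included 1. Gzmk there rested on 2 tumor UMIs, at 12.5 CPM in spleen and 19.9 CPM in tumor. Of all genes tested in CD8 T cells 26.7% were higher and 33.5% lower in the first pair, and 27.4% and 30.7% in the second. The median over members was 1.999 and 2.41 on the log2 scale and stays so with the genes at 0 set to their bounds, against -0.046 and -0.00037 over all genes. NK markers summed to 361 and 464 CPM in spleen CD8 T cells and to 1445 and 1235 CPM in tumor CD8 T cells, in which Klrb1c was at 0 in both libraries and Ncr1 was at 19.9 and 0 CPM. Monocyte markers were at 335 and 479 CPM in spleen and 628 and 925 CPM in tumor, and macrophage markers at 24.2 and 17.9 CPM and 389 and 729 CPM, and their part in the result was not tested.

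Gzmb was likewise higher in tumor Foxp3 T cells than in those of spleen, 58.1-fold (37.3 to 92.3) in the libraries labelled deficient and 34.0-fold (11.4 to 99.4) in those labelled WT, the latter on 9 and 8 UMIs. Klrg1 was 9.69-fold (5.04 to 17.6) higher in the former and 2.60-fold (0.685 to 7.01) in the latter, and Nkg7 1.88-fold (0.795 to 3.81) and 1.67-fold (0.196 to 6.36). Of these, the ratios of Gzmb in both pairs and of Klrg1 in the libraries labelled deficient had intervals that did not include 1. Those intervals cover counting error only and leave out the spread between cells. One cell held 6 of the 8 tumor Gzmb UMIs in the library labelled WT, and without it the level was 93.4 CPM in place of 350. In the libraries labelled deficient 1 cell held 19 of 60 tumor UMIs and 1 held 18 of 32 spleen UMIs. Without these cells Gzmb stood at 1037 CPM in tumor and 10.9 CPM in spleen.

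Other genes of the killing machinery were counted by list. Of 15 genes of granule content, loading and release, 4 of 12 with enough UMIs were at least 1.5-fold higher and 3 lower in tumor than in spleen NK cells of the libraries labelled WT, and 4 of 15 higher and 2 lower in those labelled deficient, where 18.1% and 13.4% of all genes were higher and 28.9% and 28.6% lower. Srgn, the proteoglycan core that binds granzymes in granules, went from 908 to 2433 CPM and from 967 to 2126 CPM. In CD8 T cells 9 of 14 were higher and 2 lower, and 10 of 14 higher and none lower, where 26.7% and 27.4% of all genes were higher and 33.5% and 30.7% lower. There Srgn went from 594 to 1773 CPM and from 576 to 2572 CPM, Cst7, an inhibitor of granule cathepsins, from 101.8 to 498 CPM and from 92.4 to 317 CPM, and Ctsc, the protease that activates granzymes, from 48.0 to 209 CPM and from 49.6 to 365 CPM. Ctsw, a lymphocyte cathepsin, stood at 322 and 369 CPM and at 360 and 439 CPM.

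Granzyme inhibitors protect the killer cell from its own granzymes. The listed inhibitors with enough UMIs were all at least 1.5-fold higher in tumor CD8 T cells. They were 4 of 4 in the libraries labelled WT and 3 of 3 in those labelled deficient, against 26.7% and 27.4% of all genes. Serpinb9, the inhibitor of granzyme B, went from 11.1 to 159 CPM and from 9.95 to 196 CPM. In NK cells 2 of 4 were higher and 1 lower, and 1 of 4 higher and none lower, against 18.1% and 13.4% of all genes higher. The other granzymes were at 0 UMIs in spleen CD8 T cells, and Gzmf had 371 and 40 UMIs, Gzmd 64 and 113 and Gzme 53 and 70 in tumor CD8 T cells. How these UMIs were spread over the 25 and 42 tumor cells was not examined.

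Of 15 transcription factors, 9 of 13 were lower and none higher in tumor NK cells of the libraries labelled WT, and 8 of 13 lower and none higher in those labelled deficient. Of all genes in these NK cells 28.9% and 28.6% were lower and 18.1% and 13.4% higher, and the next lists are to be read against the same shares. Zeb2, a factor of terminal NK maturation, went from 345 to 16.0 CPM and from 375 to 46.1 CPM, and Tbx21, which encodes T-bet, from 191 to 63.9 CPM and from 202 to 48.0 CPM. Among maturation and residence genes 1 was higher and 5 were lower of 8, and 3 higher and 5 lower of 11. Klf2, a factor of trafficking and quiescence, went from 2523 to 198 CPM and from 1677 to 322 CPM, and S1pr5, an exit receptor of mature NK cells, from 93.4 CPM to 0 UMIs and from 230 to 1.92 CPM. Death ligands and cytokines other than the members had 0 higher and 3 lower of 6 in both pairs. The chemokine Ccl5 went from 20753.6 to 1542 CPM and from 19592.4 to 3243 CPM, and Ccl4 from 4678 to 131 CPM and from 6175 to 434 CPM. In CD8 T cells Lef1, a factor of naive cells, went from 571 to 9.96 CPM and from 523 to 33.8 CPM, Tcf7 from 520 to 49.8 CPM and from 481 to 33.8 CPM, and the checkpoint gene Pdcd1 from 2.17 to 548 CPM and from 1.07 to 459 CPM, with 6 of 8 and 7 of 8 genes of the exhaustion list higher, against 26.7% and 27.4% of all genes.

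Between the genotype labels, spleen NK cells differed little in these genes. Of 9 with enough UMIs, Gzmm was higher and Gzmk lower by at least 1.5-fold, against 9.76% of all genes higher and 5.07% lower. Gzmm had 3 UMIs in the library labelled WT and 28 in that labelled deficient, a ratio of 3.96 (1.22 to 20.4), and Gzmk 43 and 58, a ratio of 0.573 (0.379 to 0.870). Both rested on few UMIs. One cell held 14 of the 43 Gzmk UMIs, and without it the level was 57.1 CPM in place of 82.0, against 47.0 CPM in the library labelled deficient. With cells thinned to 1000 UMIs the log2 ratio of Gzmm was -0.12. The main granule genes stood within 1.5-fold, Gzma at 0.890 (0.860 to 0.921), Gzmb at 0.758 (0.684 to 0.842), Prf1 and Nkg7 at log2 ratios of 0.090 and -0.011, and the sum of 10 at 0.918 (0.894 to 0.942). The median over members was -0.01, against 0.05 over all genes. Fasl, Ifng and Klrg1 had ratios of 1.09 (0.914 to 1.32), 0.849 (0.713 to 1.02) and 1.16 (0.912 to 1.48), all with intervals that included 1. Of the granule list 0 of 14 genes passed 1.5-fold, and of the inhibitors Serpinb6a was higher, at 19.1 and 34.0 CPM, and Serpinb9b lower, at 521 and 268 CPM.

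Library-wide, in contrast, the spleen library labelled deficient held more of these transcripts. Over all kept cells Gzma stood at 143 CPM in the library labelled WT and 302 CPM in that labelled deficient, Prf1 at 18.2 and 39.1 CPM and Nkg7 at 157 and 293 CPM. In tumor Gzma stood at 16.1 and 49.9 CPM and Nkg7 at 16.2 and 34.3 CPM, and Gzmc at 57.4 and 26.9 CPM. NK cells were 1.80% and 3.51% of kept spleen cells and 0.944% and 3.10% of kept tumor cells, and spleen CD8 T cells 11.1% and 16.5%. Neutrophils were 29.4% and 14.4% of kept spleen cells, and cells named fibroblasts 30.45% and 16.38% of kept tumor cells. Magnetic enrichment can set such shares, and its part in these differences was not tested.

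Spleen CD8 T cells had 2 of 8 genes at least 1.5-fold higher in the library labelled deficient and 1 lower, against 2.8% and 3.1% of all genes, with a median over members of 0.14 against 0.01. Gzmb was at 4.34 and 9.64 CPM and Gzmk at 12.5 and 23.1 CPM, while Gzma was at 33.1 and 16.99 CPM. The proliferating cluster held 9 and 13 of these CD8 T cells. Without it the log2 ratio of Gzma went from -0.92 to 1.24 and that of Gzmb from 0.99 to 0.055, while that of Gzmk went from 0.84 to 0.65 and stayed past 1.5-fold. With cells thinned to 1000 UMIs Gzma gave 0.10 and Gzmk -0.33, so the direction of both turned there. Nkg7 (637 and 675 CPM), Prf1 (33.7 and 36.4 CPM), Ifng (30.1 and 33.8 CPM) and Gzmm (16.6 and 23.7 CPM) stood within 1.5-fold. Of 14 transcription factors only Eomes, a factor of effector and NK cells, was higher, at 35.0 and 65.0 CPM, and of 14 granule genes none passed 1.5-fold.

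Spleen CD4 T cells had 5 of 7 genes higher and 1 lower in the library labelled deficient, against 3.45% and 4.65% of all genes, with a median of 1.43 against -0.01. Ifng stood at 48.4 and 132 CPM, but 1 cell held 323 of 601 UMIs, and without the proliferating cluster its log2 ratio was 0.095. Gzma, at 2.32 and 13.2 CPM, had 47 of 60 UMIs in 1 cell, and Gzmb, at 1.55 and 11.7 CPM, had 49 of 53 in 1 cell. Their log2 ratios without that cluster were 0.12 and -0.47. Gzmk (1.55 and 20.7 CPM) and Nkg7 (39.1 and 74.3 CPM) had log2 ratios of 2.40 and 0.69 without it, but Nkg7 gave -0.15 with T cells divided by sub-cluster. Gzmk was found in 3 of 734 cells (0.409%) and 27 of 1050 cells (2.57%), and no cell held more than 19 of its 94 UMIs. Prf1 was lower, at 20.1 and 12.5 CPM.

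Spleen Foxp3 T cells had 2 of 4 genes higher and 1 lower, against 6.36% and 7.86% of all genes, with a median of 0.61 against 0.00. Nkg7 stood at 52.5 and 102.2 CPM, Gzmb at 10.3 and 24.8 CPM with 18 of 32 UMIs in 1 cell, and Klrg1 at 67.3 and 37.2 CPM, in 5.34% and 4.95% of cells. Without the highest cell of each library Gzmb stood at 5.74 and 10.9 CPM and Klrg1 at 56.2 and 28.8 CPM. Neutrophil markers were higher in the library labelled WT in every one of these spleen classes, at 477 to 703 CPM against 151 to 227 CPM, and the neutrophils themselves held the 10 genes at 22.2 and 27.0 CPM. The part of these markers in the ratios was not tested.

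**Figure D3:**
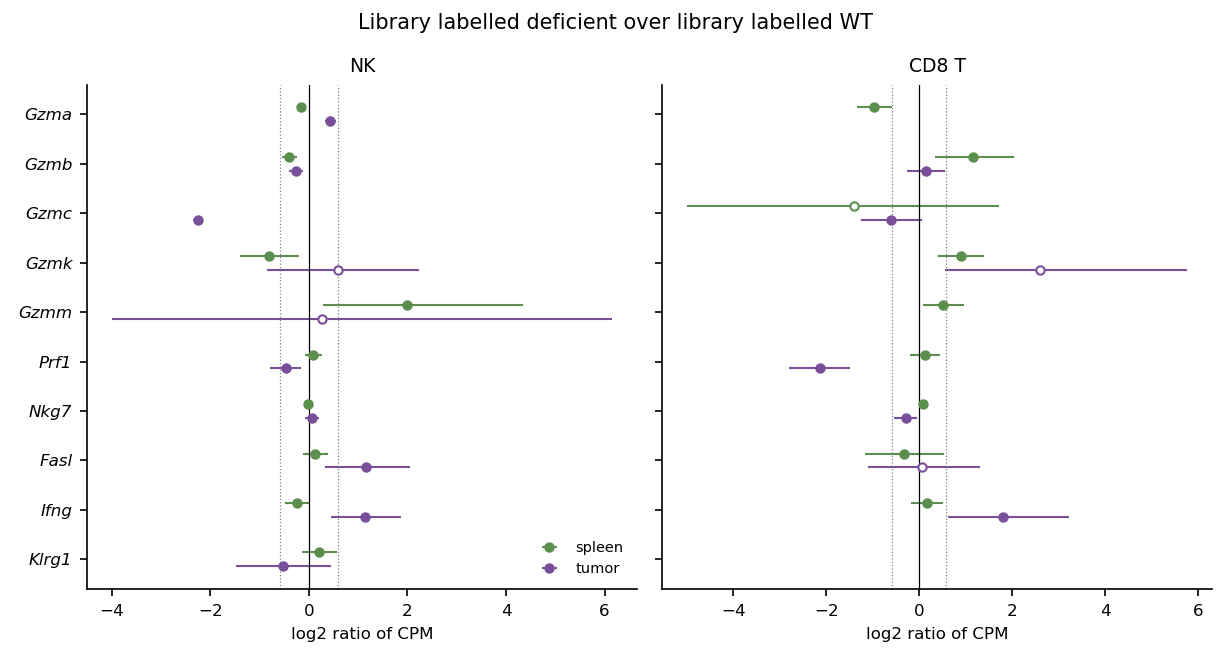
Log2 ratio of CPM in the library labelled deficient over that labelled WT, in spleen (green) and tumor (purple), for NK cells (left) and CD8 T cells (right). Bars are 95% exact conditional intervals, open points have under 30 UMIs over both libraries, dotted lines mark 1.5-fold, and genes with 0 UMIs in either library are not drawn. In spleen NK cells the genes other than Gzmk and Gzmm lie within 1.5-fold, and in tumor Gzmc lies lowest in NK cells and Prf1 lowest in CD8 T cells.

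Tumor NK cells showed 3 calls among 8 genes, Fasl and Ifng higher and Gzmc lower in the library labelled deficient, against 13.6% of all genes higher and 11.3% lower. The median over members was -0.10, against 0.03 over all genes. Gzmc stood at a ratio of 0.211 (0.197 to 0.225), with its share of cells at 44.6% and 27.0%, and at 7771 and 1561 CPM without the highest cell of each library. At 1000 UMIs per cell the shares were 34.2% (23.5 to 46.3%) and 20% (14.3 to 26.7%), with intervals that overlapped. Gzmd, Gzme, Gzmf and Gzmg were lower too, 4 of 4 of the other granzymes, with the 5 highest cells holding 76.3% to 100% of their UMIs in the library labelled WT. Fasl went from 51.1 to 113 CPM, a ratio of 2.22 (1.26 to 4.13), with 14 of 74 and 50 of 185 cells positive. Ifng went from 73.4 to 161 CPM, a ratio of 2.20 (1.37 to 3.65), and 1 cell held 19 of 84 UMIs, without which the level was 125.5 CPM. Gzma was 1.35 times (1.26 to 1.46) and Gzmb 0.835 times (0.760 to 0.917) as high, Prf1 0.721 times (0.580 to 0.898), and Nkg7 1.04 times (0.943 to 1.15). The sum of 10 was 0.603 times (0.581 to 0.625) as high. Gzmc was 3298 of its 5924 UMIs in the library labelled WT and 1156 of 5942 in that labelled deficient.

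**Figure D4:**
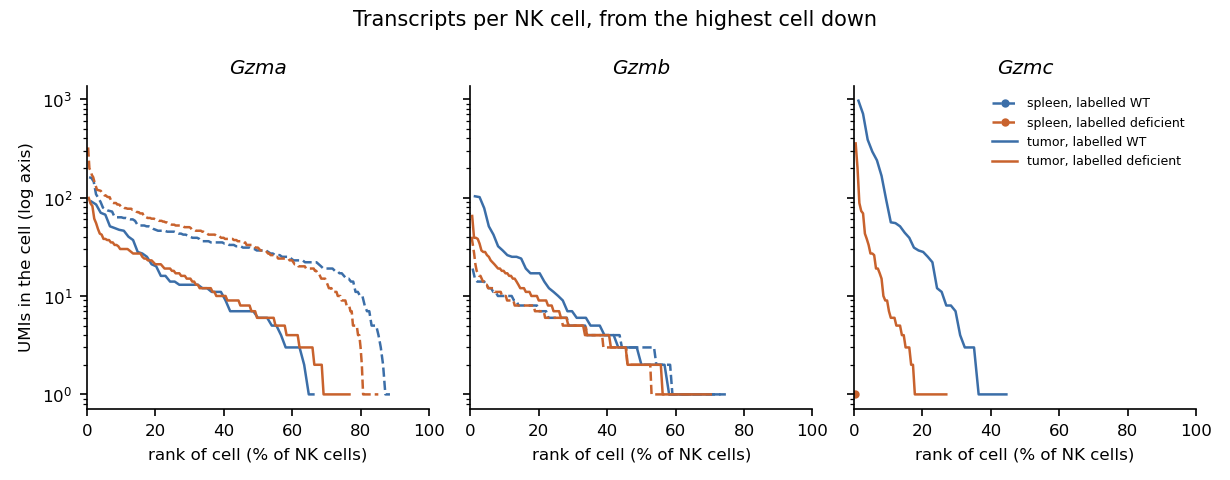
UMIs of Gzma, Gzmb and Gzmc in each NK cell (log axis), from the highest cell down as a percentage of NK cells, in spleen (dashed) and tumor (solid) for the libraries labelled WT (blue) and deficient (orange). Cells with 0 UMIs are not drawn. Gzma was spread over 85.2% to 88.6% of spleen NK cells, whereas Gzmc was found in 44.6% and 27.0% of tumor NK cells with 964 and 355 UMIs in the highest cell, and in spleen in 1 cell.

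Of the other death ligands and cytokines in tumor NK cells, 4 of 6 were higher and none lower in the library labelled deficient, against 13.6% and 11.3% of all genes. Ccl5 stood at 1542 and 3243 CPM, Ccl4 at 131 and 434 CPM, Ccl3 at 63.9 and 207 CPM and Xcl1 at 479 and 860 CPM. Of the granule list 3 of 12 were higher, namely Ctsl, Ctsc and Lyst, and 1 lower, Cst7 at 326 and 146 CPM. Of 4 granzyme inhibitors none passed 1.5-fold. T cell markers in the class summed to 316 and 537 CPM, type 2 innate lymphoid markers to 223 and 480 CPM and carcinoma markers to 89.4 and 169 CPM, while Cd8a, Cd8b1 and Cd4 were at 0 in both libraries. The part of these markers in the result was not tested.

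Tumor CD8 T cells had 1 of 5 genes higher and 2 lower in the library labelled deficient, against 14% and 10.8% of all genes, with a median of -0.29 against -0.01. Prf1 stood at 827 and 189 CPM, a ratio of 0.229 (0.143 to 0.355), with 10 of 25 and 14 of 42 cells positive. One cell held 26 of the 83 UMIs of the library labelled WT, and without the highest cells the levels were 638 and 156 CPM. The log2 ratio of Prf1 was -2.12, and -1.07 with cells thinned to 1000 UMIs. Ifng stood at 69.7 and 243 CPM, a ratio of 3.48 (1.53 to 9.28), with 13 of 36 UMIs in 1 cell, without which the level was 158 CPM, and log2 ratios of -0.26 in thinned cells and -0.82 with doublets kept. Gzmc stood at 408 and 270 CPM, with 26 of 41 and 38 of 40 UMIs in 1 cell each and an interval of the ratio (0.417 to 1.05) that included 1. Gzmb was 1.11 times (0.835 to 1.48) and Nkg7 0.818 times (0.691 to 0.969) as high. Gzmf, at 371 and 40 UMIs, was the 1 lower of 3 other granzymes, and how its UMIs were spread over cells was not examined. Ccl3, Ccl4 and Ccl5 were higher, Ccl4 at 448 and 2140 CPM. Macrophage markers summed to 389 and 729 CPM in these cells and monocyte markers to 628 and 925 CPM, and their part was not tested.

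Of tumor Foxp3 T cells only Gzmb had enough UMIs, 8 and 60, a ratio of 4.12 (1.96 to 9.98), in a class where 16.6% of all genes tested were higher and 16.6% lower. One cell held 6 of the 8 UMIs and another 19 of the 60. With 7 and 18 cells, the shares of positive cells, 42.9% (9.90 to 81.6%) and 55.6% (30.8 to 78.5%), were not distinguishable at this depth. No gene of tumor CD4 T cells had enough UMIs.

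Within spleen NK cells Gzmb, Prf1 and Klrg1 were found more often in cells with Gzma than in those without. Gzmb was found in 81.8% (74.2 to 88.0%) of Gzma-positive cells and 5.88% (0.149 to 28.7%) of Gzma-negative cells in the library labelled WT, and in 74.8% (68.7 to 80.3%) and 12.5% (4.19 to 26.8%) in that labelled deficient. Prf1 was found in 84.1% and 88.7% of Gzma-positive and in 35.3% and 40% of Gzma-negative cells. Klrg1 was found in 44.7% and 49.1% of Gzma-positive and in 0 of 17 and 4 of 40 Gzma-negative cells, and in 49.5% and 56.5% of Gzmb-positive against 12.5% and 18.3% of Gzmb-negative cells. Cells with more UMIs show more of every gene, and such pairs share that depth. With each cell thinned to 1000 UMIs, Gzmb was still found in 63.6% of Gzma-positive and in 0 of 19 Gzma-negative cells of the library labelled WT, and in 53.7% and 1 of 52 cells of that labelled deficient. All NK cells with Gzmk also held Gzma, which was 23 and 29 cells in spleen and 5 and 13 in tumor. Gzma was found in 86.5% and 83.4% of Gzmk-negative NK cells in spleen and in 63.8% and 75% in tumor. The intervals of Gzmk-positive and Gzmk-negative cells overlapped in all of these libraries but spleen labelled deficient (88.1 to 100% against 78.1 to 87.9%). At 1000 UMIs per cell the intervals of that library overlapped too (59.0 to 100% of 7 cells against 74.9 to 84.9%). In the tumor library labelled WT 1 of 2 Gzmk-positive cells then held Gzma. In spleen Gzmb was found in 73.9% and 65.5% of Gzmk-positive and in 73.0% and 65.6% of Gzmk-negative NK cells. In thinned cells Ifng was found in 25.6% and 30.5% of Gzmb-positive and in 22.7% and 15.8% of Gzmb-negative cells.

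In tumor NK cells the link between both granzymes was looser. Gzmb was found in 79.6% (65.7 to 89.8%) of Gzma-positive and 64% (42.5 to 82.0%) of Gzma-negative cells of the library labelled WT, and in 73.9% (65.9 to 80.9%) and 58.1% (42.1 to 73.0%) in that labelled deficient, with intervals that overlapped in both. At 1000 UMIs per cell these shares were 65.1% and 40%, and 66.1% and 49.0%. Prf1 was found in 59.2% and 48.6% of Gzma-positive and in 48% and 37.2% of Gzma-negative cells. In tumor CD8 T cells Prf1 was found in 8 of 13 and 10 of 18 Gzmb-positive cells and in 2 of 12 and 4 of 24 Gzmb-negative cells. Counted over the 10 genes, the median NK cell held 5 in both spleen libraries and 4 in both tumor libraries, and 72.5% and 69.6% of spleen against 32.4% and 33.0% of tumor NK cells held at least 5. After thinning these shares were 31.8% and 30% in spleen and 12.3% and 8.57% in tumor. Of tumor CD8 T cells 36% and 52.4% held at least 3 of the genes, against 4.22% and 6.46% of those in spleen.

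**Figure D5:**
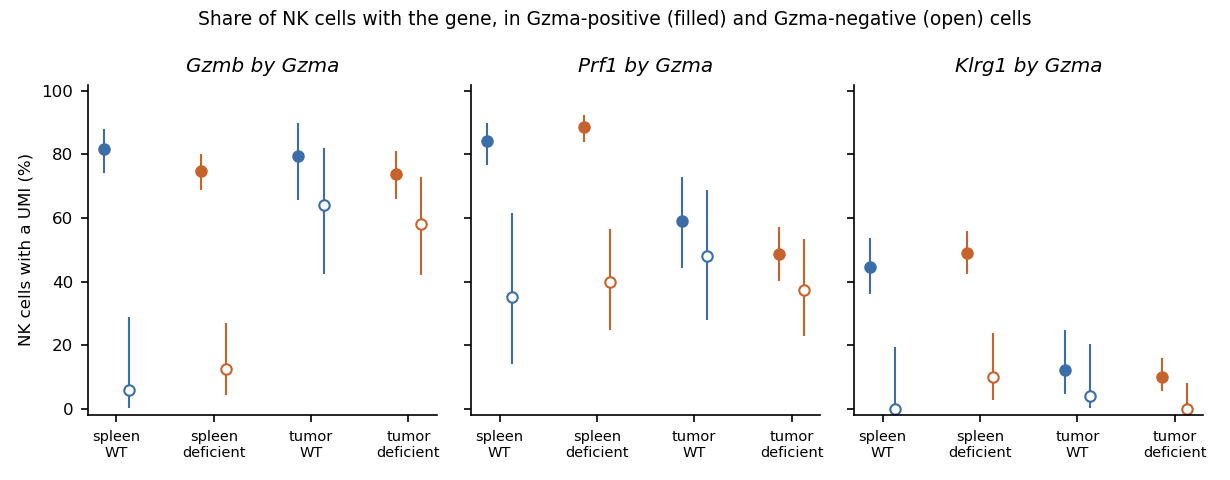
Share of NK cells with a UMI of Gzmb, Prf1 or Klrg1 among Gzma-positive cells (filled) and Gzma-negative cells (open), in spleen and tumor for the libraries labelled WT (blue) and deficient (orange). Bars are 95% Clopper-Pearson intervals. In spleen the filled points of Gzmb, at 81.8% and 74.8%, lie far above the open ones, at 5.88% and 12.5%, and in tumor the intervals overlap.

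Across 47 units, each a class with at least 50 cells in 1 library, the level of Gzma on the log2 scale with 1 CPM added was most like that of Ncr1 (Pearson r of 0.96), Xcl1 (0.96) and Klra7 (0.96). Prf1 was most like Eomes (0.95), Cd160 (0.94) and Samd3 (0.93), and Gzmk most like Xcl1 (0.94), Eomes (0.94) and Samd3 (0.93). Gzmb was most like Sytl2 (0.91), Sytl3 (0.87) and Muc1 (0.87), of which the first 2 encode synaptotagmin-like proteins of vesicle transport. Klrg1 was most like Spin2c (0.88), Il2rb (0.87) and Tceal3 (0.86). Among the members Fasl and Ifng (0.94), Gzmk and Ifng (0.93) and Gzma and Prf1 (0.93) were the most alike. Gzmc was the least like the others, at 0.28 to 0.67. These correlations are descriptions over units that share libraries, depth and free RNA.

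In marrow, Nkg7 and Gzmb were also found outside lymphocytes. Over all kept marrow cells Nkg7 was found in 59.6% and 42.1%, so it reached beyond progenitors and NK cells. Nkg7 was found in 94.1% of 1482 and 93.4% of 1144 progenitor cells, at 1085 (1073 to 1098) and 1273 CPM (1252 to 1294), against 2213 and 2597 CPM in marrow NK cells and 7.86 and 3.13 CPM in erythroid cells of the same libraries. Gzmb was found in 36 of 368 (9.78%, 6.95 to 13.3%) and 41 of 407 (10.1%, 7.33 to 13.4%) basophil or mast cells, at 85.2 (74.6 to 96.8) and 143 CPM (126 to 161), against 463 and 251 CPM in marrow NK cells. In monocytes of the same libraries, as a background, Gzmb had 4 UMIs in 808 cells and 0 UMIs in 1046 cells, and Nkg7 stood at 57.2 and 45.5 CPM. Each class thus held far more of its gene than these monocytes. An unnamed marrow cluster of 293 and 399 cells also held Nkg7, at 1216 and 1385 CPM. At 1000 UMIs per cell Nkg7 was found in 59.1% and 65.5% of progenitors.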

How the data were processed

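Single-cell RNA libraries (10x) were counted by the submitters; the matrices, as deposited, give for each barcode the UMI count of each gene, made with Cell Ranger 6.0.0 on mm10 per the submitters' processing notes and 6.1.0 per the file headers. Per the labels' protocols a 5′ kit and a 3′ kit are both named, so which end was read is unsure. Antibody features were left out. From the counts, barcodes with at least 300 genes, 500 UMIs and at most 10% mitochondrial UMIs were kept, and the highest Scrublet-type doublet scores (0.8% per 1000 barcodes) removed. Cells were scaled to 10000 UMIs, reduced to 2000 variable genes without the 10 genes, 30 components and 15 neighbours, and clustered by Leiden (resolution 1) with python 3.11.15, scanpy 1.11.5, igraph 0.11.9 and leidenalg 0.10.2. Other values used numpy 2.4.6, pandas 2.3.3 and scipy 1.17.1. UMIs were summed per library and class. Scripts were tested on simulated data. Members and gene lists were chosen with earlier results of these data known. Of each list up to 3 genes with the most UMIs and those past 2-fold with at least 100 UMIs could be named; others, such as Ctsc and Lyst in tumor NK cells, Serpinb6a in spleen NK cells and Eomes in spleen CD8 T cells, were picked after their values were seen. Pearson correlations named the 3 most alike genes. Gene positions came from GENCODE by gene ID and promoters from RefSeq for 9 of 10 genes. Alternatives were other doublet, depth, mitochondrial, cluster, gate, scaling and weighting choices.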

Additional observations from a re-analysis of the deposited data

Results flagged for a closer look

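Gzmb in marrow basophil or mast cells, at 85.2 CPM in the library labelled WT and 143 CPM in that labelled deficient, stands out because it appears in cells outside the comparisons of lymphocytes, above its level in monocytes, neutrophils and erythroid cells of the same tissue. It was found in 36 of 368 and 41 of 407 cells. Nkg7 in marrow progenitors, at 1085 and 1273 CPM, stands out for the same reason. It was found in 1394 of 1482 and 1068 of 1144 cells, and in 59.6% and 42.1% of all kept marrow cells.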

How the results depend on the processing

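No paired analysis was possible because each group was 1 library, and leaving out a replicate was not possible for the same reason. For 21 called single-gene ratios, all of deficient over WT, 223 of 237 alternative values kept the direction and 197 also stayed past 1.5-fold. In every alternative run 5 ratios did so. These were Gzmc and Fasl in tumor NK cells and Prf1 in tumor CD8 T cells. The others were Gzmb in tumor Foxp3 T cells and Gzmk in spleen CD4 T cells. Some agreements were fixed in advance. A minimum of 100 UMIs left the ratio of a gene that passed it as it was. Adding the unnamed spleen cluster left tumor T cells unchanged. Single-gene ratios of tumor over spleen had no such set of alternative runs. Values below are log2 ratios, and the cause of each change was not tested. Leaving out the highest cell and adding the unnamed spleen cluster to the T cells were chosen after seeing the data. Deficient over WT, single genes reversed as follows. With cells thinned to 1000 UMIs Gzmm in spleen NK cells gave -0.12, Gzma 0.10 and Gzmk -0.33 in spleen CD8, Gzma -0.22 and Gzmb -0.94 in spleen CD4, and Gzmc 1.15 and Ifng -0.26 in tumor CD8 T cells. With T cells by sub-cluster and NK cells by transcripts Gzmk in spleen NK cells gave 0.14, Gzma in spleen CD8 0.66, and Nkg7 -0.15 and Ifng -0.095 in spleen CD4 T cells. Gzma in spleen CD8 T cells gave 0.44 without its highest cell, Gzmc in tumor CD8 T cells 0.48 as a mean over cells, and Ifng there -0.82 with doublets kept. The sum of the 10 genes moved as follows. In spleen NK cells (-0.12) it gave -0.17 with doublets kept, -0.20 thinned, -0.0062 by transcripts and -0.17 by median-ratio scaling. In spleen CD8 T cells (0.093) it gave -0.057 thinned and 0.35 by sub-cluster. In spleen CD4 T cells (1.08) it gave 0.27 thinned, -0.18 by sub-cluster, 0.87 with the unnamed cluster, 0.46 as a mean over cells and 0.67 without the highest cell. In tumor NK cells (-0.73) it gave -0.43 thinned, -0.87 by transcripts, -0.47 as a mean and -0.61 without the highest cell, and in tumor CD8 T cells (-0.26) -0.78 with doublets kept and -0.018 as a mean. Tumor over spleen in the libraries labelled WT, NK cells (0.29) gave -0.27 thinned, 0.55 by transcripts, -0.25 as a mean, 0.41 by median-ratio scaling and 0.075 without the highest cell, and CD8 T cells (2.63) 2.48 as a mean and 2.47 without it. In those labelled deficient, NK cells (-0.32) gave -0.21 with doublets kept, -0.50 thinned, -0.56 as a mean, -0.13 by median-ratio scaling and -0.39 without the highest cell, and CD8 T cells (2.28) 1.78 with doublets kept and 2.16 without the highest cell. The 7 to 42 tumor T cells per class and library limit every value there.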
